A study of Mus musculus with 6 samples.

Results

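The NRF2 antioxidant response genes were followed in livers of Cyr61 KO and control mice by bulk RNA sequencing. The 10 genes were chosen by name, as the transcription factor NRF2 (Nfe2l2), its inhibitor KEAP1 and 8 antioxidant target genes, and all 10 were found among the 24411 gene symbols of the count tables. The series held 3 Cyr61 KO and 3 control libraries from male mice aged 24 weeks. Per the labels, every animal was of the strain Cyr61fl/fl and had 12 weeks of NASH (non-alcoholic steatohepatitis) diet, so both groups carried floxed alleles and had the diet. The labels do not say in which cells, or by what means, the gene was removed in the Cyr61 KO group, nor whether the libraries are 6 separate mice. The p-values thus measure the spread between these libraries. Cyr61 encodes a matricellular protein that cells secrete, and the study's title concerns its part in macrophage signalling during liver fibrosis. The comparison asks here whether the antioxidant programme of the liver differed without it.

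NRF2 is a transcription factor that is kept low by KEAP1, an adaptor that hands it to a CUL3 ubiquitin ligase. When reactive cysteines of KEAP1 are modified by oxidants or electrophiles, NRF2 accumulates, pairs with small MAF proteins and binds antioxidant response elements in its target genes. The targets make and recycle glutathione and thioredoxin, repair oxidised proteins, and detoxify quinones. In liver the pathway is known mainly from hepatocytes, but macrophages and bile duct cells use it as well.

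The libraries held 21032878 to 40377742 gene counts. Cyr61 itself had 3.77, 2.66 and 3.14 CPM (read counts scaled to a common library size, with TMM factors) in Cyr61 KO replicates 1, 2 and 3, against 15.6, 32.4 and 27.8 CPM in the controls, a log2 fold change of -2.98 ± 0.32 (SE) with an adjusted p of 0.0103 by edgeR. Control replicate 2 stood apart from the other libraries: 50.9% of its reads fell in genes, against 82.8% to 87.6% elsewhere. Reads that met no annotated gene made up 25.7% there, against 4.27% to 7.14% elsewhere. Malat1 was at 3738 CPM there, against 56.5 to 129 CPM elsewhere. The part of RNA or library quality in this was not tested. The summed CPM of 9 hepatocyte markers was 41745 in that library, against 111310 to 134470 in Cyr61 KO and 96361 and 102540 in the other controls. In bulk tissue, fewer cells of a type and less RNA per cell cannot be told apart.

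None of the 10 NRF2 antioxidant response genes passed the test. At a Benjamini-Hochberg adjusted p below 0.05 by edgeR's quasi-likelihood test, 0 of 10 were called, where 3.44% of all 13563 tested genes were called (1.07% higher and 2.37% lower). At an unadjusted p under 0.05 the count was 1 of 10, Gclc, against 27.4% of all tested genes. DESeq2 called 1 of 10, again Gclc, where it called 16.8% of all tested genes (6.53% higher and 10.2% lower). Without control replicate 2 DESeq2 still called Gclc alone, where it called 11.3% of 13647 genes (5.36% higher and 5.89% lower). Limma voom with quality weights called 4 of 10, Gclc higher and Nqo1, Srxn1 and Slc7a11 lower, where it called 33.1% of all tested genes (15.3% higher and 17.8% lower). All 10 passed the filter on low counts. Their log2 fold changes, Cyr61 KO over control, ran from -2.02 to 1.09 with a median of 0.06, beside a median of -0.03 over all tested genes. 5 of the 10 were positive and 5 negative. The libraries of the groups did not overlap in 3 of the 10, beside 35.2% of all tested genes (17.3% higher and 17.9% lower). These were Gclc and Keap1, above every control, and Nfe2l2, below every control. Missing the threshold does not show that the levels were equal.

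**Figure D1:**
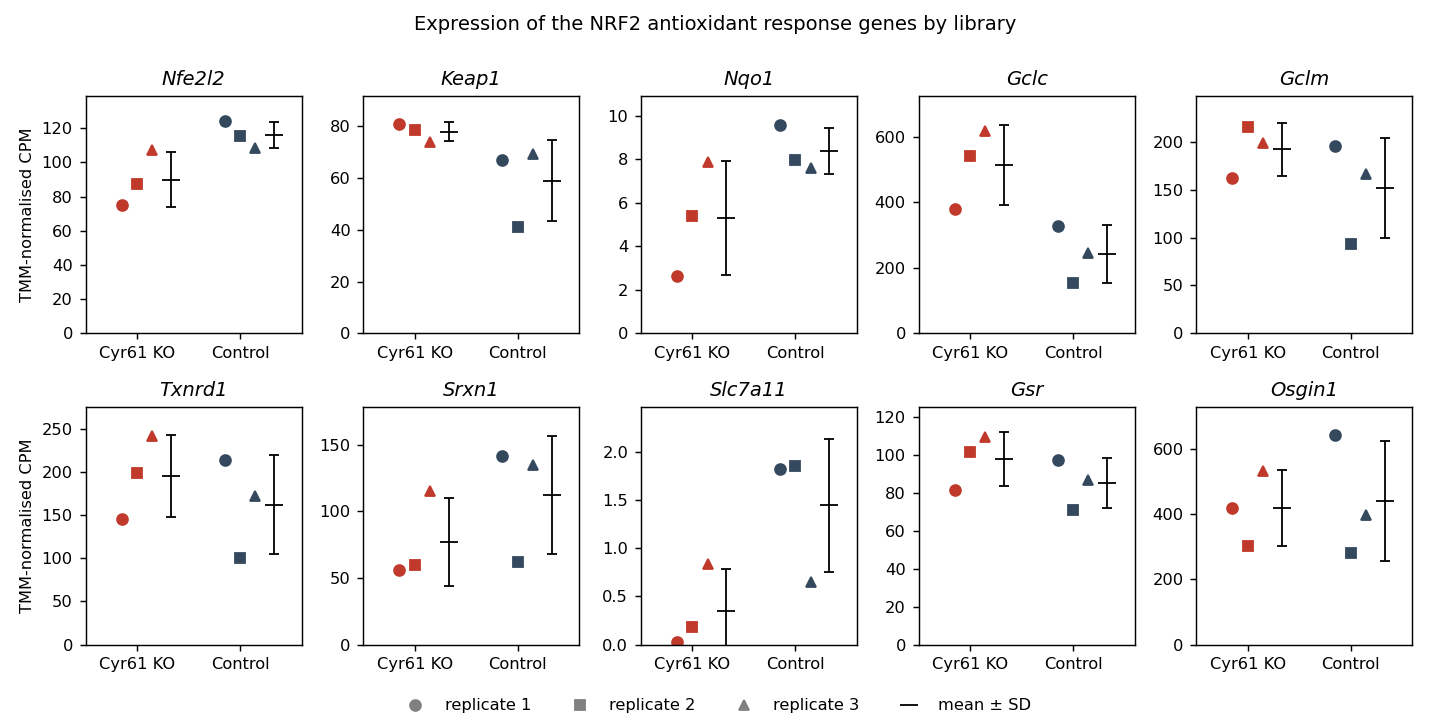
TMM-normalised CPM of each of the 10 NRF2 antioxidant response genes, with Cyr61 KO libraries on the left and Control libraries on the right of each panel. Points are libraries, with the symbol giving the replicate number, and the bars give the mean ± SD of 3, with the lower end of the Slc7a11 bar in Cyr61 KO lying below the axis. Gclc and Keap1 lie above every control and Nfe2l2 below every control, while the groups overlap in the other 7 genes.

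The regulators come first. Nfe2l2, the gene of NRF2 at chr2:75675513-75704641 on the minus strand (GRCm38), measured 75.2, 87.4 and 107.3 CPM in the 3 Cyr61 KO libraries and 124, 115 and 109 CPM in the 3 controls, in order of replicate number here and throughout. Every knockout was below every control, although Cyr61 KO replicate 3 was nearly level with control replicate 3. The means were 90.0 ± 16.2 CPM in Cyr61 KO and 116 ± 7.67 CPM in control (SD, n = 3 each). This gave a log2 fold change of -0.37 ± 0.22 (SE), short of the threshold (edgeR adjusted p = 0.305). Leaving out 1 library at a time gave -0.50 (without Cyr61 KO replicate 3) to -0.24 (without Cyr61 KO replicate 1), with -0.35 without control replicate 2, and scaling by library totals alone gave -0.63.

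Keap1, the inhibitor gene at chr9:21229730-21239361 on the minus strand, was at 81.1, 78.7 and 74.0 CPM in Cyr61 KO and at 67.1, 41.0 and 69.2 CPM in control. The knockouts were tightly grouped, with a mean of 77.9 ± 3.60 CPM, and the controls averaged 59.1 ± 15.7 CPM (SD, n = 3 each), spread by the low value of replicate 2. Its log2 fold change, 0.40 ± 0.24, missed the threshold (edgeR adjusted p = 0.307). Leaving out 1 library at a time gave 0.22 (without control replicate 2) to 0.54 (without control replicate 3).

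Since both genes were read in the same libraries, their ratio does not depend on how libraries were scaled. Nfe2l2 had 0.928, 1.11 and 1.45 reads per Keap1 read in Cyr61 KO replicates 1, 2 and 3, against 1.85, 2.81 and 1.57 in control replicates 1, 2 and 3. All 3 knockouts were below all 3 controls, which had to follow from Nfe2l2 lying below and Keap1 above every control. This ratio and the other ratios between members were chosen after the values were seen and are given as descriptions, with no test. Of 5 ratios computed, 4 did not overlap between the groups. No share over all gene pairs was computed, so this count has no background. Nfe2l2 over Keap1, Srxn1 over Txnrd1 and Nqo1 over Gclc each divide a member with a negative log2 fold change by a member with a positive value. Txnrd1 over Gsr overlapped, at 1.79, 1.97 and 2.21 in Cyr61 KO and 2.21, 1.42 and 1.99 in control, and Nqo1 over Gclc did not, at 0.00697, 0.00996 and 0.0127 in Cyr61 KO and 0.0292, 0.0520 and 0.0311 in control.

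Gclc had the highest log2 fold change of the members. The gene, at chr9:77754535-77794485 on the plus strand, encodes the catalytic subunit of glutamate-cysteine ligase, the rate-limiting enzyme of glutathione synthesis. It was at 379, 541 and 618 CPM in Cyr61 KO and at 328, 153 and 245 CPM in control. Every knockout exceeded every control, with the closest approach between Cyr61 KO replicate 1 and control replicate 1. The means were 513 ± 122 CPM in Cyr61 KO and 242 ± 87.6 CPM in control (SD, n = 3 each), a log2 fold change of 1.09 ± 0.35 or 2.12-fold. This did not pass by edgeR (adjusted p = 0.0999) but passed by DESeq2 (adjusted p = 0.0114). Over 15 alternative settings the value lay between 0.84 and 1.40, with adjusted p from 0.0107 to 0.310, and passed in 3. Without control replicate 2 it was 0.86 (edgeR adjusted p = 0.129). Of 9 hepatocyte markers edgeR called 1 higher, beside 1.07% of all tested genes. Their summed CPM also did not overlap between groups, at 111310 to 134470 CPM in Cyr61 KO and 41745 to 102540 CPM in control. Alb made up most of the sum, at 90103, 77118 and 81391 CPM in Cyr61 KO and at 66677, 23799 and 66177 CPM in control. Taken singly, 4 of the 9 markers lay above every control, beside 17.3% of all tested genes, and 5 overlapped. The part of hepatocytes in the Gclc difference was not tested.

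Gclm, the modifier subunit of the same ligase at chr3:122245557-122270732 on the plus strand, had a smaller fold change. It was at 162, 215 and 199 CPM in Cyr61 KO and at 195, 93.3 and 167 CPM in control, so that the groups overlapped. Its log2 fold change was 0.34 ± 0.31 (edgeR adjusted p = 0.498), and 0.11 (without control replicate 2) to 0.59 (without control replicate 1) with 1 library left out. The proportion of the 2 subunits was read within each library. Gclc had 2.34, 2.51 and 3.10 reads per Gclm read in Cyr61 KO replicates 1, 2 and 3, against 1.68, 1.64 and 1.47 in control replicates 1, 2 and 3. Control replicate 2 was in the middle of its group by this ratio, although it was lowest for each subunit alone.

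Slc7a11, at chr3:49892526-50443614 on the minus strand, encodes the cystine-importing subunit of the cystine-glutamate antiporter and was the scarcest member. It had 1, 5 and 30 reads in Cyr61 KO replicates 1, 2 and 3 and 65, 54 and 21 reads in control replicates 1, 2 and 3. In CPM these were 0.0297, 0.177 and 0.841 in Cyr61 KO and 1.83, 1.86 and 0.650 in control. The 95% exact Poisson interval, which covers counting error only, ran from 0.000752 to 0.166 CPM for the single read of Cyr61 KO replicate 1. Cyr61 KO replicate 3, with an interval of 0.567 to 1.20 CPM, overlapped control replicate 3, with 0.402 to 0.993 CPM. Its log2 fold change of -2.02 ± 0.92 missed the threshold (edgeR adjusted p = 0.195). The value was -3.79 without Cyr61 KO replicate 3 (edgeR adjusted p = 0.0539) and -1.46 without Cyr61 KO replicate 1 (0.293), with -1.77 without control replicate 2 (0.315), so its size depended on which knockout was kept. Over 14 alternatives the adjusted p ran from 0.0226 to 0.467, and passed in 1.

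Slc3a2, the heavy-chain partner of Slc7a11 in the antiporter, is no member and was singled out after its values were seen. It was at 39.2, 42.1 and 44.0 CPM in Cyr61 KO and at 63.7, 54.8 and 59.0 CPM in control, without overlap (log2 fold change -0.50, edgeR adjusted p = 0.126).

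The enzymes that recycle thiols showed small differences. Gsr, glutathione reductase at chr8:33652523-33698163 on the plus strand, was at 81.7, 102 and 109 CPM in Cyr61 KO and at 97.0, 70.9 and 86.7 CPM in control. The log2 fold change was 0.20 ± 0.22 (edgeR adjusted p = 0.580), and it turned to -0.039 when libraries were scaled by their totals alone. With 1 library left out it was 0.11 (without control replicate 2) to 0.34 (without control replicate 1). Txnrd1, cytosolic thioredoxin reductase at chr10:82833951-82897712 on the plus strand, was at 146, 199.9 and 242 CPM in Cyr61 KO and at 215, 100.5 and 172 CPM in control. Its log2 fold change of 0.27 ± 0.33 (edgeR adjusted p = 0.618) was 0.040 without control replicate 2 and 0.55 without control replicate 1. For both enzymes the lowest value of all libraries was that of control replicate 2, and the groups overlapped.

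Srxn1 and Nqo1 pointed the other way. Srxn1, sulfiredoxin, which reactivates overoxidised peroxiredoxins, lies at chr2:152105516-152111376 on the plus strand. It was at 55.9, 60.1 and 115 CPM in Cyr61 KO and at 141, 61.6 and 135 CPM in control. Cyr61 KO replicate 3 and control replicate 2 each left their group and made the groups overlap. The log2 fold change was -0.55 ± 0.39 (edgeR adjusted p = 0.379). With 1 library left out it was -0.95 without Cyr61 KO replicate 3 and -0.82 without control replicate 2, but -0.39 without Cyr61 KO replicate 2 or control replicate 3, -0.36 without Cyr61 KO replicate 1 and -0.32 without control replicate 1 (edgeR adjusted p = 0.178 to 0.703 over these). Srxn1 had 0.383, 0.300 and 0.475 reads per Txnrd1 read in Cyr61 KO replicates 1, 2 and 3, against 0.657, 0.613 and 0.782 in control replicates 1, 2 and 3, without overlap.

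Nqo1, a quinone reductase often used as a readout of NRF2 activity, lies at chr8:107388225-107403206 on the minus strand and was scarce. It had 89, 152 and 280 reads in Cyr61 KO, or 2.64, 5.39 and 7.85 CPM, and 341, 231 and 246 reads in control, or 9.58, 7.95 and 7.61 CPM. Cyr61 KO replicate 3 reached the level of the lower controls, while replicates 1 and 2 stayed below them. The log2 fold change was -0.66 ± 0.38 (edgeR adjusted p = 0.289). It was -1.05 without Cyr61 KO replicate 3 (0.144) and -0.33 without Cyr61 KO replicate 1 (0.487), and -0.68 without control replicate 2 (0.365).

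Osgin1, an oxidative stress-induced growth inhibitor at chr8:119434124-119446256 on the plus strand, was the member with the least difference. It was at 419.5, 301 and 532 CPM in Cyr61 KO and at 642, 281 and 396 CPM in control. The Cyr61 KO libraries lay within the range of the controls, at -0.08 ± 0.37 on the log2 scale (edgeR adjusted p = 0.909). The sign turned in 2 of 15 alternatives, to 0.13 without Cyr61 KO replicate 2 and to 0.34 without control replicate 1. Without control replicate 2 it was -0.29.

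**Figure D2:**
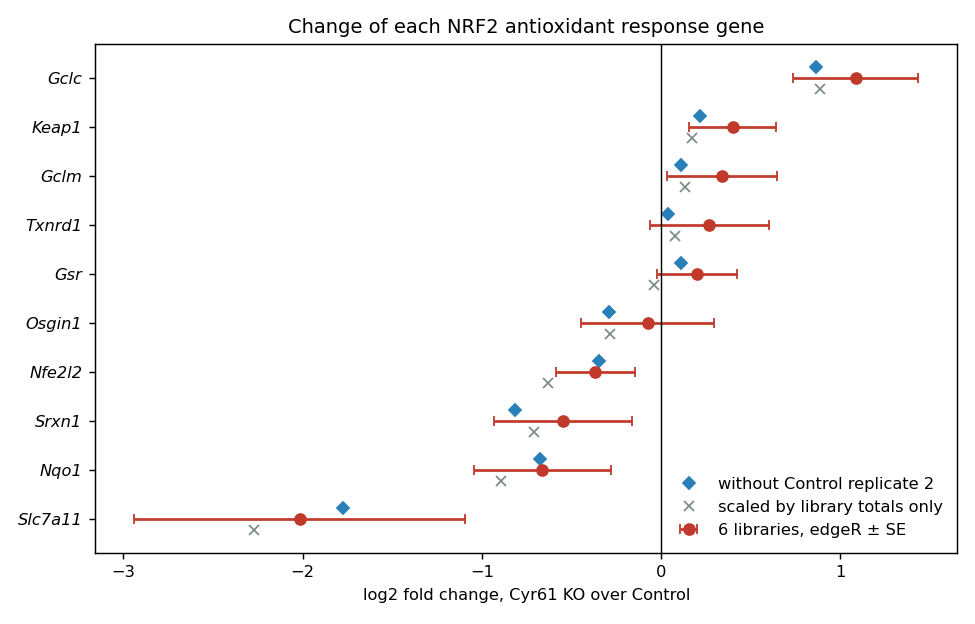
Log2 fold change of each NRF2 antioxidant response gene, Cyr61 KO over Control, from edgeR on all 6 libraries (red, ± SE), without Control replicate 2 (blue diamonds) and with scaling by library totals only (grey crosses). The values run from 1.09 for Gclc to -2.02 for Slc7a11; without Control replicate 2, Keap1, Gclm and Txnrd1 lie nearer to 0, at 0.22, 0.11 and 0.04.

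The libraries of a group ranked much alike from member to member. In the Cyr61 KO group replicate 3 was highest for 8 of 10 members and replicate 1 lowest for 8. In the control group replicate 1 was highest for 8 of 10 and replicate 2 lowest for 7. The spread within a group was widest for Slc7a11, followed among the knockouts by Nqo1, whose highest value was 2.97 times its lowest. Among the controls the highest value of Srxn1, Osgin1, Gclc, Gclm and Txnrd1 was 2.09 to 2.29 times the lowest, and that of Nfe2l2 was 1.14 times. The hepatocyte marker sum and the share of reads in genes were lowest in control replicate 2 as well. Their part in the low values of that library was not tested.

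**Figure D3:**
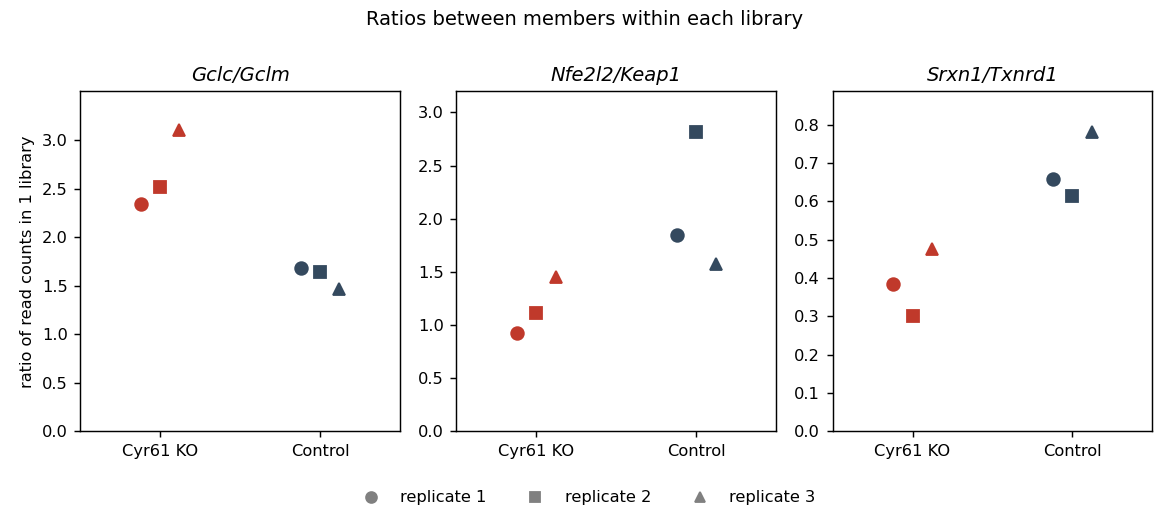
Read count of one member over another within the same library for 3 of the 5 ratios computed, Gclc over Gclm, Nfe2l2 over Keap1 and Srxn1 over Txnrd1, with Cyr61 KO libraries left of Control libraries. The Gclc to Gclm ratio lies between 2.34 and 3.10 in Cyr61 KO and between 1.47 and 1.68 in Control, and in the other ratios all 3 Cyr61 KO points lie under all 3 Control points.

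Levels of different genes were compared per kilobase of annotated exon. On that scale Osgin1 led in both groups, at 156 ± 43.3 CPM per kilobase in Cyr61 KO and 165 ± 69.0 CPM per kilobase in control. Gclc followed, at 136 ± 32.4 in Cyr61 KO and 64.2 ± 23.3 in control (CPM per kilobase, SD, n = 3 each). The ranges of Osgin1 and Gclc overlapped in Cyr61 KO, at 113 to 199 and 101 to 164 CPM per kilobase, but not in control, at 105 to 240.2 and 40.6 to 87.1. In control Srxn1, Gsr, Nfe2l2, Gclm and Txnrd1 came next, between 39.9 and 22.9 CPM per kilobase on average, and each overlapped its neighbour in range. Keap1 at 12.6, Nqo1 at 5.40 and Slc7a11 at 0.104 CPM per kilobase closed the order in control. The ranges of Keap1, Nqo1 and Slc7a11 did not overlap each other in control.

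The antioxidant response element, to which NRF2 binds with small MAF proteins, has the core TGACNNNGC, or GCNNNGTCA when read on the other strand. It was searched for in windows of 250 bases before to 50 bases after annotated starts (RefSeq, GRCm38.p6). Windows were at hand for 8 of the 10 members, matched by symbol. At least 1 core match stood in windows of 4 members, Nfe2l2, Gclm, Srxn1 and Txnrd1, against 14.0% of 27025 genes. The 4 windows are shown because they hold the core letters within 250 bases of a start of the regulator itself and of targets from each thiol system. Each is printed 5′ to 3′ on the strand of the gene, with the core in capitals. They lie at chr2:75704614-75704913 (minus strand) for Nfe2l2, chr3:122245307-122245606 (plus) for Gclm, chr2:152105274-152105573 (plus) for Srxn1 and chr10:82858956-82859255 (plus) for 1 of 3 annotated starts of Txnrd1.
Nfe2l2: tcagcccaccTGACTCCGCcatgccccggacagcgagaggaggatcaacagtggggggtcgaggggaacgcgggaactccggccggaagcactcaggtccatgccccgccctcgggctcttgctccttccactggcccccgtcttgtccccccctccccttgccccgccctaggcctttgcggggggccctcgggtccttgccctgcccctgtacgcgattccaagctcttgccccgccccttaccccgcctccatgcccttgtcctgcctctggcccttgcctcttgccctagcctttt
Gclm: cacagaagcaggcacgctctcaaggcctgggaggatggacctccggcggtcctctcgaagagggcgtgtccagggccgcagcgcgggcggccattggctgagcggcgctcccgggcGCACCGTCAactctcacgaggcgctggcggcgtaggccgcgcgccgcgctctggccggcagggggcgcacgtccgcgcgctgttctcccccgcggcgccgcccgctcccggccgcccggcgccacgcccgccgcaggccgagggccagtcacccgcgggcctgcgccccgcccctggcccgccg
Srxn1: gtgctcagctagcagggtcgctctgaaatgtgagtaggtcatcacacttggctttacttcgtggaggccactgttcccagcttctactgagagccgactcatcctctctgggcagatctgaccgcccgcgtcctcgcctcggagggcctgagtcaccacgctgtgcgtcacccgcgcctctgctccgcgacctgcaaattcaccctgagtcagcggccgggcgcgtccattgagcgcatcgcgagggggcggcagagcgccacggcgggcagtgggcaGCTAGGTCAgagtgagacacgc
Txnrd1: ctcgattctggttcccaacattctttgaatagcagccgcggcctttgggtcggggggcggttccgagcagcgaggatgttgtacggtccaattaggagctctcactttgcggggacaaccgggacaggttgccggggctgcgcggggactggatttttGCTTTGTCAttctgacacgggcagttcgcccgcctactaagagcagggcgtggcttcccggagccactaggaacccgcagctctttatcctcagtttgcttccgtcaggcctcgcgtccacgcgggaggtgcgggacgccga
The match lies on the strand of the gene in Nfe2l2 and on the other strand in Gclm, Srxn1 and Txnrd1. Counted from the annotated start it begins at -240 in Nfe2l2, near the far edge of the window. In Gclm, Txnrd1 and Srxn1 it begins at -134, -92 and 28. The windows of Keap1, Nqo1, Osgin1 and Slc7a11 held no such letters, which says nothing about elements farther away. None of the members with a match passed the test, and their log2 fold changes were of both signs, at -0.37 for Nfe2l2, 0.34 for Gclm, -0.55 for Srxn1 and 0.27 for Txnrd1.

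The proteins around KEAP1 and NRF2 were then followed. Of 14 genes of the ligase, its adaptors and the binding partners, edgeR called 0, beside 3.44% of all tested genes, and DESeq2 called 1, beside 16.8%. Before adjustment 3 of the 14 had an edgeR p under 0.05, beside 27.4% of all tested genes. Their median log2 fold change was -0.02. Cul3, the scaffold of the ligase that KEAP1 serves, was at 63.8, 82.2 and 66.2 CPM in Cyr61 KO and at 56.2, 44.4 and 51.6 CPM in control (log2 fold change 0.48, edgeR adjusted p = 0.172). Maff, a small MAF partner, was at 3.48, 2.80 and 4.68 CPM in Cyr61 KO and at 9.89, 8.57 and 6.0 CPM in control (-1.16, 0.0772). Mafk, another small MAF gene, and Nfe2l3, a relative of NRF2, were at -0.54 and -1.95 on the log2 scale (edgeR adjusted p = 0.218 and 0.166). Nfe2l3 was scarce, with 107 reads over all libraries, and the groups overlapped. It was at 0.149, 0.461 and 0.112 CPM in Cyr61 KO and at 0.393, 1.82 and 0.557 CPM in control, highest in control replicate 2. Sqstm1, which encodes the p62 adaptor that can sequester KEAP1, and Park7 were the most abundant of the list, at -0.28 and 0.04 (0.615 and 0.941).

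Other genes that NRF2 is known to induce were read from a list of detoxification genes. Of 37 tested genes of detoxification, heme and iron handling and efflux transport, 2 were called lower and 0 higher by edgeR (5.41%, beside 3.44% of all tested genes), with a median of -0.22. Hmox1, heme oxygenase, fell by 1.66 on the log2 scale to 22.5 ± 10.1 CPM in Cyr61 KO, against 71.0 ± 7.54 CPM in control (SD, n = 3 each, edgeR adjusted p = 0.0334). Cbr3, a carbonyl reductase, was at 1.54, 1.06 and 4.74 CPM in Cyr61 KO and at 12.2, 12.2 and 13.4 CPM in control, which is -2.36 on the log2 scale (edgeR adjusted p = 0.0445). Glutathione S-transferase genes, which conjugate glutathione to electrophiles, were next by p and differed in both directions, with 0 of 10 tested called by edgeR. Gsta1 was at 0.772, 0.319 and 5.52 CPM in Cyr61 KO and at 27.3, 24.9 and 19.8 CPM in control (-3.42, 0.0575). Gsta2, Gstm3 and Gstm2 were at -1.40, -1.91 and -0.81 (edgeR adjusted p = 0.0525, 0.0753 and 0.0625), each without overlap of the groups. Gsta3 and Gstm6, named after their values were seen, lay the other way, also without overlap. Such separation was common. Of the 37 genes 5 lay above and 8 below every control, beside 17.3% and 17.9% of all tested genes. Gsta3 was at 2084, 1770.3 and 1417 CPM in Cyr61 KO and at 1046, 558 and 959 CPM in control (1.04, edgeR adjusted p = 0.111). Gstm6 was at 0.47 (edgeR adjusted p = 0.191). DESeq2 called Gsta3 higher (adjusted p = 0.00801) and Gsta1, Gsta2, Gstm3 and Gstm2 lower (0.0153, 0.00199, 0.00132 and 0.00283). Of the 37 genes DESeq2 called 8 lower and 3 higher, beside 10.2% and 6.53% of all tested genes. Reads that map to several places are listed apart from gene counts, so close copies such as Gsta1 and Gsta2 are uncertain. Ftl1, ferritin light chain, and Mgst1, a microsomal transferase, led the list in abundance, at -0.22 and 0.38 (0.701 and 0.465).

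These calls depended on single libraries. Without control replicate 2, Hmox1 was at -1.60 (edgeR adjusted p = 0.0608) and Cbr3 at -2.35 (0.0813), with 0 of the list called. Leaving out control replicate 1, or either of Cyr61 KO replicates 1 and 2, also gave 0. Leaving out replicate 3 of either group gave 4. The number of calls over all tested genes moved in the same direction. From 467 with every library kept, it fell to 293 when control replicate 2 was dropped and to 174 for control replicate 1. Dropping Cyr61 KO replicate 1 left 7 calls, and dropping Cyr61 KO replicate 2 left 24. The number rose to 773 on dropping Cyr61 KO replicate 3 and to 878 for control replicate 3. Some markers of other cells also differed between the groups. Of all tested genes edgeR called 2.37% lower and 1.07% higher. Of 10 markers of monocyte-derived macrophages 5 were called lower, with sums of 95.7 to 223 CPM in Cyr61 KO and 386 to 1533 CPM in control. Of 8 stellate cell markers 4 were called lower, with sums of 291 to 485 CPM in Cyr61 KO and 765 to 1363 CPM in control. Of 8 cholangiocyte markers 0 were called, with sums of 102 to 179 CPM in Cyr61 KO and 248 to 1399 CPM in control. Of 8 Kupffer cell markers 1 was called higher (Cd163, 3.48, edgeR adjusted p = 0.0237). Of 8 endothelial markers 2 were called higher (Kdr, 1.16, and Clec4g, 0.90, edgeR adjusted p = 0.0293 and 0.0487). The markers of both lists went in both directions, with 5 of 8 log2 fold changes positive and 3 negative in each. The sums of these 2 lists overlapped between groups, at 543 to 984 and 214 to 307 CPM in Cyr61 KO and 569.5 to 906 and 146 to 264 CPM in control. Spp1 is in both the macrophage and the cholangiocyte list and made up a large part of both sums. It was at 69.0, 61.9 and 126 CPM in Cyr61 KO and at 221, 1113 and 193 CPM in control. The part of these cells in the lower genes of this list and those that follow, and in the low Slc7a11 and Nqo1 values of Cyr61 KO replicates 1 and 2, was not tested.

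Of 30 other genes of glutathione, thioredoxin and peroxide handling, 2 were called lower and 0 higher (6.67%, beside 3.44% of all tested genes), at a median of -0.30. Gpx3, secreted glutathione peroxidase, fell by 1.68 on the log2 scale to 13.6 ± 1.04 CPM in Cyr61 KO, against 43.6 ± 18.4 CPM in control (edgeR adjusted p = 0.0288). Gpx7, a peroxidase of the endoplasmic reticulum, fell by 1.70 to 2.20 ± 0.853 CPM in Cyr61 KO, against 7.20 ± 0.986 CPM in control (SD, n = 3 each, 0.0427). Gpx4, which reduces lipid peroxides, was at 255, 204 and 217 CPM in Cyr61 KO and at 444, 469 and 442 CPM in control, and missed the threshold (-1.0, edgeR adjusted p = 0.0598). Gpx8 was at -1.90 (0.0881). Catalase (Cat), which breaks down hydrogen peroxide in peroxisomes, was at 2979, 4028 and 3371 CPM in Cyr61 KO and at 1835, 1056 and 1805 CPM in control (1.14, 0.0949). Txnrd3, a relative of Txnrd1, was at 0.84 (0.0999), and Gpx1, the abundant cytosolic peroxidase, at -0.50 (0.432). DESeq2 called 7 of the 30 genes, 2 higher and 5 lower, beside 16.8% of all tested genes. Gpx4, Gpx8, Cat and Txnrd3 were among them (DESeq2 adjusted p = 5.18e-05, 0.0128, 0.00129 and 0.0357). Gpx3 alone still passed by edgeR without control replicate 2, at -1.26. By edgeR 0 genes of the list passed without Cyr61 KO replicate 1 or 2, where 7 and 24 of all tested genes were called.

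Of 6 NADPH-producing enzymes 1 was called higher and 0 lower, beside 1.07% of all tested genes called higher, at a median of 0.27. Me1, cytosolic malic enzyme, which is also a lipogenic gene, was at 603, 698 and 504 CPM in Cyr61 KO and at 144, 89.4 and 117 CPM in control (2.36, edgeR adjusted p = 0.0136). G6pdx, Tkt and Taldo1 of the pentose phosphate pathway were at -0.59, 0.48 and -0.25 and Idh1 at 0.48 (edgeR adjusted p = 0.316, 0.200, 0.516 and 0.352). Without Cyr61 KO replicate 1 or 2 Me1 no longer passed by edgeR, at 2.37 and 2.26 (0.0615 and 0.0773), where 7 and 24 of all tested genes did. It was 2.23 without control replicate 2 (0.0191).

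Slc7a11 is also a target of ATF4, the amino acid stress factor, and Nqo1 of AHR, the aryl hydrocarbon receptor. Of 12 tested genes of these factors and their targets, 4 were called lower and 1 higher, or 41.7% beside 3.44% of all tested genes. The median was -0.96 over the genes of both factors. The list was chosen with earlier results of these data known, so this share is a description and no test. The ATF4 targets Ddit3, Fgf21, Asns and Phgdh fell, with log2 fold changes of -2.71, -2.76, -2.19 and -2.64 (edgeR adjusted p = 0.0176, 0.0237, 0.0237 and 0.0458). Atf4 itself was at 130.4, 134 and 91.9 CPM in Cyr61 KO and at 146, 169 and 183 CPM in control (-0.48, 0.229), and Trib3 and Psat1 were at -1.09 and -0.82 (0.0938 and 0.244). Of the AHR genes, Cyp1a2 rose by 1.57 to 355 ± 70.5 CPM in Cyr61 KO, against 120 ± 18.0 CPM in control (SD, n = 3 each, 0.0272). Cyp1b1 was at -2.05 (0.0899) and Ahr at 0.21 (0.612). Cyp1a1 and Tiparp, named to complete the list, were at 0.57 and 0.24 (0.525 and 0.635). By edgeR calls numbered 0 without Cyr61 KO replicate 1 or 2, and 2 without control replicate 1, where 7, 24 and 174 of all tested genes were called. Without control replicate 2 they numbered 4, with Phgdh lost (-1.92, edgeR adjusted p = 0.0709).

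**Figure D4:**
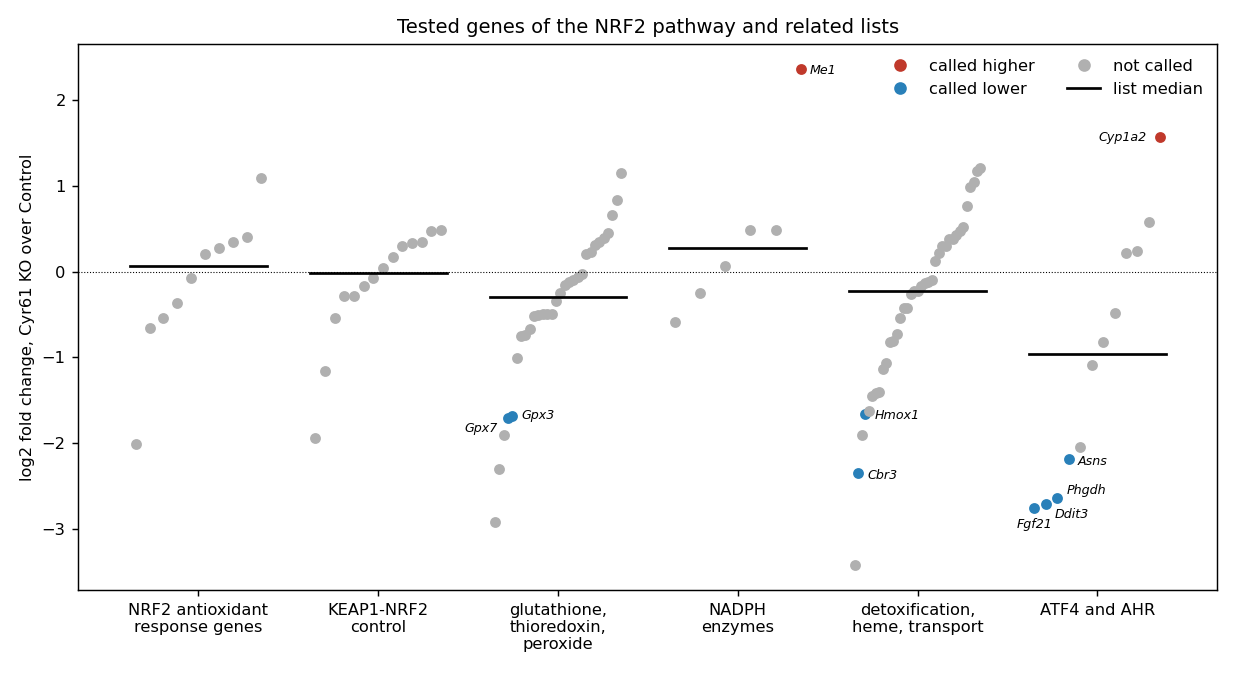
Log2 fold change, Cyr61 KO over Control, of every tested gene of the NRF2 antioxidant response genes and of 5 related lists, ordered by value within a list. Points are genes, coloured where edgeR called them, and black lines are list medians. Of the NRF2 antioxidant response genes 0 are coloured, and the lowest median, -0.96, is that of the ATF4 and AHR list.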

How the data were processed

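Tools named per the submitters' processing notes are Trimmomatic 0.38 and STAR 2.6.1a, with mm10 and hg38 as builds; the annotation release is not given in the sources used here. The authors deposited 1 table of read counts per gene for each library, and the counts of the strand that fits the directional kit were used. The deposited table of the whole series equalled the unstranded counts in 100% of 24384 rows compared. Reads outside genes, in several genes or at several places stayed out. The test was edgeR 4.0.16 (R 4.3.3; quasi-likelihood F test, two-sided, TMM, group term only) after filterByExpr at min.count 10 and min.total.count 15, with genes called at a Benjamini-Hochberg adjusted p below 0.05 over all tested genes. Standard errors were taken as |log2 fold change| divided by √F. DESeq2 1.42.0 and limma 3.58.1 voom were alternatives. An exact permutation test of 3 against 3 cannot go below 0.1 and was not used. Positions and exon lengths come from GENCODE M21 (GRCm38). Gclm, Txnrd1, Slc7a11, Gsr and Nfe2l2 each overlap another annotated gene on the same strand, and reads in shared exons are not counted. Depth was 21032878 to 40377742 counts. The members and lists were chosen with earlier results of these data known. From each pathway list the text names called genes, up to 4 others by p and up to 2 by mean CPM, with Hmox1, Atf4 and Ahr in any case. The closest replicates differed by more than sampling noise (chi-square per degree of freedom 57.8).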

Additional observations from a re-analysis of the deposited data

How the results depend on the processing

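Of the 13563 genes tested edgeR called 467, and of the members 0. Leaving out each library in turn gave 7 to 878 genes called, 0 to 0 members, 0 to 0 KEAP1-NRF2 control genes, 0 to 2 thiol enzyme genes, 0 to 1 NADPH enzyme genes, 0 to 4 detoxification genes and 0 to 5 ATF4 and AHR genes. The Cyr61 log2 fold change was then -3.19 to -2.73, and did not pass without Cyr61 KO replicate 1 (-3.10, edgeR adjusted p = 0.0615). DESeq2 called 2273 genes, 1 member, 1 control gene, 7 thiol and 11 detoxification genes. Limma voom with quality weights called 4483 genes (33.1%), 4 members (Gclc, Nqo1, Srxn1 and Slc7a11), 4 control, 16 thiol, 2 NADPH, 18 detoxification and 8 ATF4 and AHR genes. Scaled by library totals alone, edgeR called 50 genes (27 higher and 23 lower, against 145 and 322 with TMM) and 0 thiol, 0 detoxification and 0 ATF4 and AHR genes. The median of all genes then lay at -0.30, and Gsr turned to -0.039. With no low-count filter 944 genes and 5 detoxification genes were called. DESeq2 without control replicate 2, chosen after seeing the data, called 1536 genes, 1 member, 2 control, 7 thiol and 6 detoxification genes. Osgin1 ranged from -0.29 to 0.34 when a library was left out, and turned sign in 2 such settings, 0.13 and 0.34. The cause was not tested. The signs of the other 8 members held in every setting run, except that Slc7a11 did not pass the filter of CPM 1 or more in 3 libraries and has no value there.

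Deviations from the group means correlated at -0.06, -0.24 and -0.45 between same-numbered libraries of the 2 groups. Between differently numbered libraries the correlations lay from -0.19 to 0.36. With 3 libraries per group these values depend on each other, so they cannot show whether the libraries were paired. With the replicate block edgeR called 633 genes, 0 members and 5 detoxification genes. Depth limits Slc7a11 most, where 3 counts equal 0.0891 CPM in Cyr61 KO replicate 1, above its value.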
